A study of Homo sapiens with 6 samples.

Results

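The genes described here are 9 components of the machinery by which cells detect double-stranded RNA: the cytosolic helicases DDX58, IFIH1 and DHX58, the endosomal receptor TLR3, the kinase EIF2AK2, the adaptors MAVS and TICAM1, the kinase TBK1 and the transcription factor IRF3. They were chosen by gene symbol because an siRNA is itself a short double-stranded RNA, and all 9 were found among the 24789 genes and loci with values. All 9 also passed the filter on low counts that left 16250 genes for testing. RNA had been sequenced from LX-2, an established and immortalised line of human hepatic stellate cells, in 6 libraries. The labels describe 3 as LX-2 cells (genotype WT) given a scrambled siRNA and 3 as AEBP1 knockdown, given an siRNA against AEBP1, a collagen-binding matrix protein. Both groups received 50 nM siRNA with a lipid reagent and were cultured for 48 hours, so the siRNA dose and the transfection were shared by all libraries. No untransfected library was analysed here, and levels in cells that met no siRNA were therefore not measured. All 6 libraries come from a single cell line, and nothing in the labels says that they were separate transfections. The p-values therefore measure only the spread between these libraries, which may be technical.

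RIG-I (encoded by DDX58) and MDA5 (IFIH1) are helicases that bind double-stranded RNA in the cytosol and pass the signal through their caspase recruitment domains to MAVS on the mitochondrial surface. TLR3 binds double-stranded RNA in endosomes and signals through TRIF (TICAM1). Both routes meet at the kinase TBK1, which phosphorylates IRF3, and IRF3 then drives type I interferon and a set of antiviral genes. PKR (EIF2AK2) halts translation when it binds double-stranded RNA. The helicases, TLR3 and PKR are themselves induced by interferon, whereas MAVS, TICAM1, TBK1 and IRF3 are regarded as largely constitutive.

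The members differed in the sequence around their start. The matching windows are shown because they mark which members carry an interferon response core, or a variant with a shorter spacer, near their start. The RefSeq promoter table (GRCh38.p14, 250 bases before to 50 bases after the gene start) held 7 of the 9 members, DDX58 under its newer symbol RIGI. DHX58 and IRF3 were not among the matched entries. Both strands were searched for GAAANNGAAA, the core of the interferon-stimulated response element, and for GAAANGAAA, the same repeat with a spacer shorter by a base, which was added after the DDX58 promoter had been read. Matches to these motifs may overlap, but no member had both. IFIH1, TLR3 and EIF2AK2 matched the longer motif, which 3.57% of 35116 promoters in the table hold. DDX58 matched only the shorter, which 3.12% hold. Because that motif was added with the DDX58 promoter already read, its match there was fixed in advance. MAVS, TICAM1 and TBK1 matched neither, which says only that these letters are not in this window. Each window below is written in the gene's direction, with 20 bases on each side and the matched bases in capitals.
DDX58: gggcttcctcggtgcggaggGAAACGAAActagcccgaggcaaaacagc
IFIH1, distal: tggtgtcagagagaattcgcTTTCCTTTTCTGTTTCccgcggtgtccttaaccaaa
IFIH1, proximal: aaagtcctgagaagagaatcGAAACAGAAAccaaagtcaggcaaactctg
TLR3: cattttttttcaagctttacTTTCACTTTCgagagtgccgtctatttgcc
EIF2AK2: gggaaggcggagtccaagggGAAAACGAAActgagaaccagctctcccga

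The DDX58 window is at chr9:32526371-32526419 on the minus strand, and its match begins 203 bases before the gene start. The IFIH1 windows are at chr2:162318808-162318863 and chr2:162318676-162318725 on the minus strand, and the matches begin 159 and 21 bases before the start. The distal one holds 2 overlapping matches, both on the strand opposite to the gene. In TLR3 (chr4:186069132-186069181, plus strand) and EIF2AK2 (chr2:37156957-37157006, minus strand) the match begins 4 and 6 bases before the start and so spans it. A match is a description of sequence and does not show that a factor binds there.

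The libraries did not sort cleanly by label. AEBP1, the gene targeted, was at 53.6, 48.7 and 25.1 CPM (counts scaled to a common library size) in scrambled 1, 2 and 3 and at 29.7, 27.7 and 48.3 CPM in AEBP1 siRNA 1, 2 and 3, an exact two-sided permutation p of 0.6. Replicate 3 of both groups thus went against its label, and the directions below are for libraries as labelled. Over all genes, scrambled 3 was closest in counts to AEBP1 siRNA 2 (chi-square per degree of freedom 7.78) and AEBP1 siRNA 3 to scrambled 2 (9.16), each nearer than any library of its own label. Whether these libraries were exchanged was not tested, and an exchange would change every group difference given here. Total counts were 34433510 to 49432960, and AEBP1 siRNA 1 was far from the rest on the first principal component. Of 10 stellate cell markers 6 were tested. COL1A1 was at 1413 to 1617 CPM, vimentin (VIM) at 953 to 1288 CPM and TIMP1 at 114 to 161 CPM. PDGFRB was at 28.9 to 36.9 CPM, COL3A1 at 19.5 to 36.5 CPM and ACTA2 at 3.2 to 5.72 CPM. The markers not tested were DES, LUM and DCN, under 0.2 CPM, and LRAT, at 0 counts. The 10 leukocyte markers, of which 4 were tested, summed to 19.9 to 24.9 CPM in scrambled libraries and 23.1 to 26.3 CPM in AEBP1 siRNA libraries, most of it CD68. CLEC4C, a plasmacytoid dendritic cell marker, was at 0 counts. Of 6 hepatocyte markers, only SERPINA1 was tested, and TTR was at 0 counts.

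All 9 sensing genes were expressed, over a wide range. In RNA from whole cultures, fewer expressing cells and less RNA per cell cannot be told apart. On the deposited FPKM scale, which corrects for transcript length, IRF3 had the highest mean level over the 6 libraries, 47.5 FPKM, above 90.6% of the genes tested. PKR (EIF2AK2) at 16.7 FPKM, MAVS at 14.2 FPKM and TBK1 at 12.2 FPKM followed. IFIH1 at 7.9 FPKM and TICAM1 at 6.9 FPKM lay near the middle of all genes tested, with 53% and 50% of genes below them. DHX58 and DDX58, at 4.71 and 4.55 FPKM, had 42.7% and 42.3% of genes below them, and TLR3, at 0.429 FPKM, had 13%. The kinase and transcription factor at the end of the pathway were thus present at higher levels per length than the helicases that start it.

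**Figure D1:**
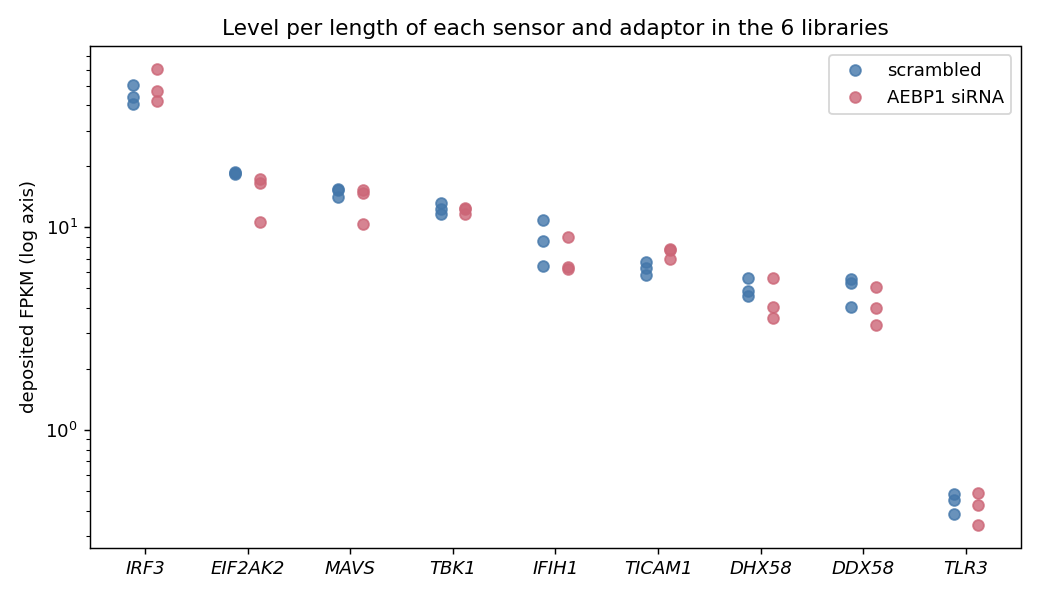
Deposited FPKM (log axis) of the 9 genes in the 6 libraries, ordered by mean level, with a point per library and colours for the labelled groups. IRF3 is highest at 40.7 to 60.6 FPKM and TLR3 lowest at 0.34 to 0.486 FPKM in every library.

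Some neighbours in that order could not be separated. DHX58 was above DDX58 in 4 of 6 libraries and IFIH1 above TICAM1 in 4 of 6, and MAVS was above TBK1 in 5 of 6. EIF2AK2 was above MAVS in 6 of 6, although their ranges overlapped. The other steps of the order did not overlap: IRF3 over EIF2AK2, TBK1 over IFIH1, TICAM1 over DHX58 and DDX58 over TLR3. Among the helicases, IFIH1 had between 1.54 and 2.04 times the FPKM of DDX58 in each library.

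None of the 9 genes passed the threshold between the labelled groups. By edgeR's quasi-likelihood test with Benjamini-Hochberg adjustment over all genes, 0 of 9 had an adjusted p under 0.05, where 0.00615% of all genes tested did. At an unadjusted p under 0.05 the count was 0 of 9, against 1.33% of all genes, and DESeq2 and limma-voom also called 0 of 9, against 0.0369% and 0.0123% of all genes. The adjusted p was 0.991 for each. Estimates were below 0, that is lower in AEBP1 siRNA libraries, for 7 of 9 members and for 50.6% of all genes. The median log2 fold change was -0.16 over the members and -0.0023 over all genes. The member median varied with the libraries used. Without AEBP1 siRNA 1 it was 0.0049, with 4 of 9 members lower, and with the offset for length described below it was -0.0051. Without replicate 3 of both groups it was -0.24. With AEBP1 siRNA 1 left out as well it was -0.16, from a single AEBP1 siRNA library. It was -0.068 without scrambled 1 and -0.27 without AEBP1 siRNA 3. Labelled groups did not overlap for 2 of 9 members, EIF2AK2 and TICAM1, against 5.93% of all genes.

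**Figure D2:**
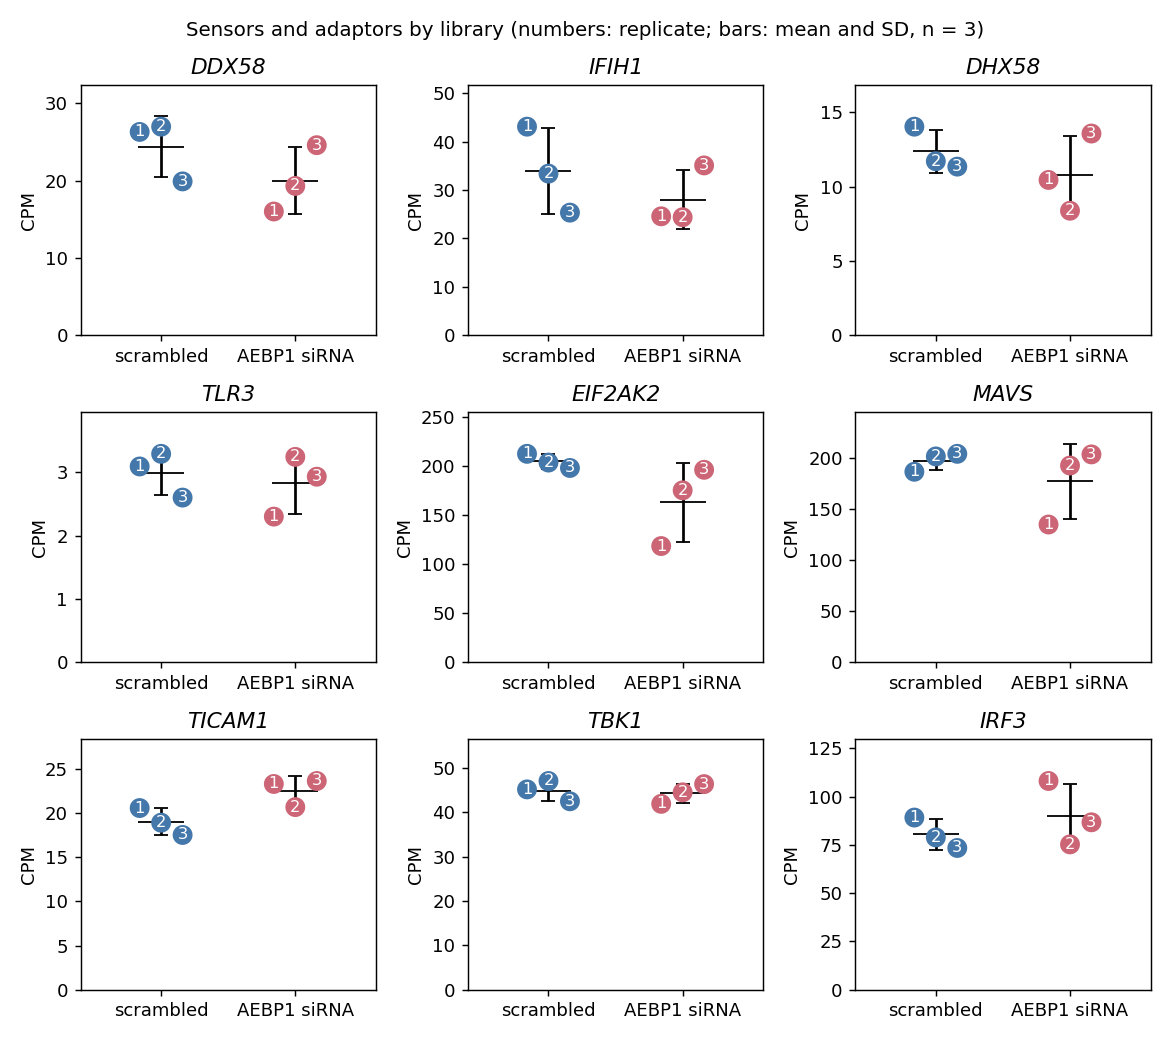
CPM of each gene (y axes from 0) in scrambled and AEBP1 siRNA libraries, with a numbered point per replicate and bars for the mean and SD of 3. Only EIF2AK2 and TICAM1 have groups that do not overlap, and AEBP1 siRNA 1 is the lowest point for DDX58, TLR3, EIF2AK2, MAVS and TBK1.

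The cytosolic helicases had a similar profile over the libraries. DDX58 (ENSG00000107201), the RIG-I helicase that prefers short RNA with a phosphorylated end, was at 26.3, 27.0 and 19.9 CPM in scrambled 1, 2 and 3 and at 16.02, 19.3 and 24.6 CPM in AEBP1 siRNA 1, 2 and 3. Scrambled 3 lay close to AEBP1 siRNA 2, and AEBP1 siRNA 3 above scrambled 3, so the groups overlapped. The scrambled mean was 24.4 CPM ± 3.91 (SD, n = 3) and the AEBP1 siRNA mean 19.99 CPM ± 4.33 (SD, n = 3), a log2 fold change of -0.29 (95% interval -0.72 to 0.14).

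IFIH1 (ENSG00000115267), the MDA5 helicase that assembles on long double-stranded RNA, was at 43.1, 33.4 and 25.3 CPM in scrambled 1, 2 and 3 and at 24.6, 24.4 and 35.1 CPM in AEBP1 siRNA 1, 2 and 3. It was highest in scrambled 1, and AEBP1 siRNA 3 exceeded scrambled 2. Its log2 fold change was -0.28 (95% interval -0.78 to 0.22). The spread within the scrambled group, 8.89 CPM (SD, n = 3), was larger than the difference between the group means of 33.9 and 28 CPM.

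DHX58 (ENSG00000108771) encodes LGP2, which lacks the caspase recruitment domains and modulates the other helicases. It was at 14.0, 11.7 and 11.3 CPM in scrambled 1, 2 and 3 and at 10.4, 8.37 and 13.6 CPM in AEBP1 siRNA 1, 2 and 3, with AEBP1 siRNA 3 again among the highest. The log2 fold change was -0.19 (95% interval -0.65 to 0.26). For all 3 helicases, scrambled 1, scrambled 2 and AEBP1 siRNA 3 were the highest libraries, as they were for AEBP1 itself. The second principal component of all genes tested (21.4% of variance) parted the libraries in the same way. Scrambled 1, scrambled 2 and AEBP1 siRNA 3 were at 30.0, 14.3 and 17.8 on it. Scrambled 3, AEBP1 siRNA 1 and AEBP1 siRNA 2 were at -26.0, -1.99 and -34.1, so this split is not particular to the helicases.

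Because replicate 3 of both groups had AEBP1 levels against the labels, each estimate was also taken without these libraries. The log2 fold changes became -0.59 for DDX58, -0.64 for IFIH1 and -0.45 for DHX58, with edgeR adjusted p-values of 0.867, 0.816 and 0.967. DDX58 and IFIH1 were then the 2 of 9 members lower at an unadjusted p under 0.05, against 2.57% of all genes. In each helicase, scrambled 3 was the lowest scrambled library and AEBP1 siRNA 3 the highest of its group. These p-values are therefore no support, since leaving out those libraries had to lower the estimates of the helicases. With AEBP1 siRNA 1 left out as well, they were -0.46, -0.65 and -0.62 (edgeR adjusted p = 0.187, 0.0982 and 0.265), but that fit rests on AEBP1 siRNA 2 alone in its group, whose spread is taken from the scrambled libraries. In that fit 1.46% of all genes were called and 0 of 9 members. Without scrambled 1 alone the estimates of IFIH1 and DHX58 were -0.068 and -0.094. Without AEBP1 siRNA 1 alone that of DDX58 was -0.15.

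TLR3 (ENSG00000164342), the endosomal receptor, was the least abundant member and rested on 80 to 162 counts per library. It was at 3.09, 3.29 and 2.6 CPM in scrambled 1, 2 and 3 and at 2.3, 3.24 and 2.93 CPM in AEBP1 siRNA 1, 2 and 3. The groups overlapped throughout, with a log2 fold change of -0.084 (95% interval -0.58 to 0.41), which became 0.043 without AEBP1 siRNA 1. It was the member with the lowest FPKM in every library.

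EIF2AK2 (ENSG00000055332), the PKR kinase, had the largest estimate of the 9 with all 6 libraries. It was at 213, 204 and 198 CPM in scrambled 1, 2 and 3 and at 119, 175 and 196 CPM in AEBP1 siRNA 1, 2 and 3. The scrambled libraries lay close together, all 3 labelled AEBP1 siRNA were below them, and the gap between scrambled 3 and AEBP1 siRNA 3 was small. The scrambled mean was 205 CPM ± 7.27 (SD, n = 3) and the AEBP1 siRNA mean 163 CPM ± 40.2 (SD, n = 3), a log2 fold change of -0.33 (95% interval -0.72 to 0.073). Without AEBP1 siRNA 1 it was -0.14, and without replicate 3 of both groups -0.50 (edgeR adjusted p at least 0.967 in both). Groups not overlapping, with the lower values in AEBP1 siRNA, were found for 2.9% of all genes.

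The adaptors differed in direction. MAVS (ENSG00000088888), the mitochondrial adaptor of RIG-I and MDA5, was at 186, 201 and 204 CPM in scrambled 1, 2 and 3 and at 135, 192 and 203 CPM in AEBP1 siRNA 1, 2 and 3. Of the AEBP1 siRNA libraries only replicate 1 was below all scrambled ones. The log2 fold change of -0.16 (95% interval -0.51 to 0.20) became 0.0049 without that library.

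TICAM1 (ENSG00000127666), the TRIF adaptor of TLR3, was at 20.6, 18.9 and 17.5 CPM in scrambled 1, 2 and 3 and at 23.3, 20.7 and 23.6 CPM in AEBP1 siRNA 1, 2 and 3. All AEBP1 siRNA libraries were above all scrambled ones. AEBP1 siRNA 2 was level with scrambled 1, so the groups were separated only narrowly. The AEBP1 siRNA mean was 22.5 CPM ± 1.62 (SD, n = 3) and the scrambled mean 19 CPM ± 1.53 (SD, n = 3), a log2 fold change of 0.25 (95% interval -0.034 to 0.53). Groups not overlapping with higher values in AEBP1 siRNA were found for 3.03% of all genes. Without replicate 3 of both groups the estimate was 0.16, and without AEBP1 siRNA 1 as well 0.068.

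TBK1 (ENSG00000183735), the kinase common to both routes, was the steadiest member. It was at 45.1, 47.0 and 42.5 CPM in scrambled 1, 2 and 3 and at 41.9, 44.5 and 46.3 CPM in AEBP1 siRNA 1, 2 and 3, and its highest library was 1.12 times its lowest. Only 7.84% of the genes tested had a lower biological coefficient of variation in edgeR's fit. Its log2 fold change was -0.021 (95% interval -0.24 to 0.19) and changed sign to 0.017 without AEBP1 siRNA 1 and 0.014 without scrambled 2.

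IRF3 (ENSG00000126456), the transcription factor that TBK1 activates by phosphorylation, was at 89.2, 78.9 and 73.4 CPM in scrambled 1, 2 and 3 and at 108, 75.3 and 86.7 CPM in AEBP1 siRNA 1, 2 and 3. AEBP1 siRNA 1 was the highest, and the remaining libraries overlapped. The log2 fold change was 0.16 (95% interval -0.17 to 0.50), 0.0093 without AEBP1 siRNA 1, and -0.16 without that library and replicate 3 of both groups. Levels of RNA do not show whether IRF3 was phosphorylated. Without replicate 3 of both groups the estimates were -0.20 for TLR3, -0.24 for MAVS, -0.094 for TBK1 and 0.13 for IRF3.

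**Figure D3:**
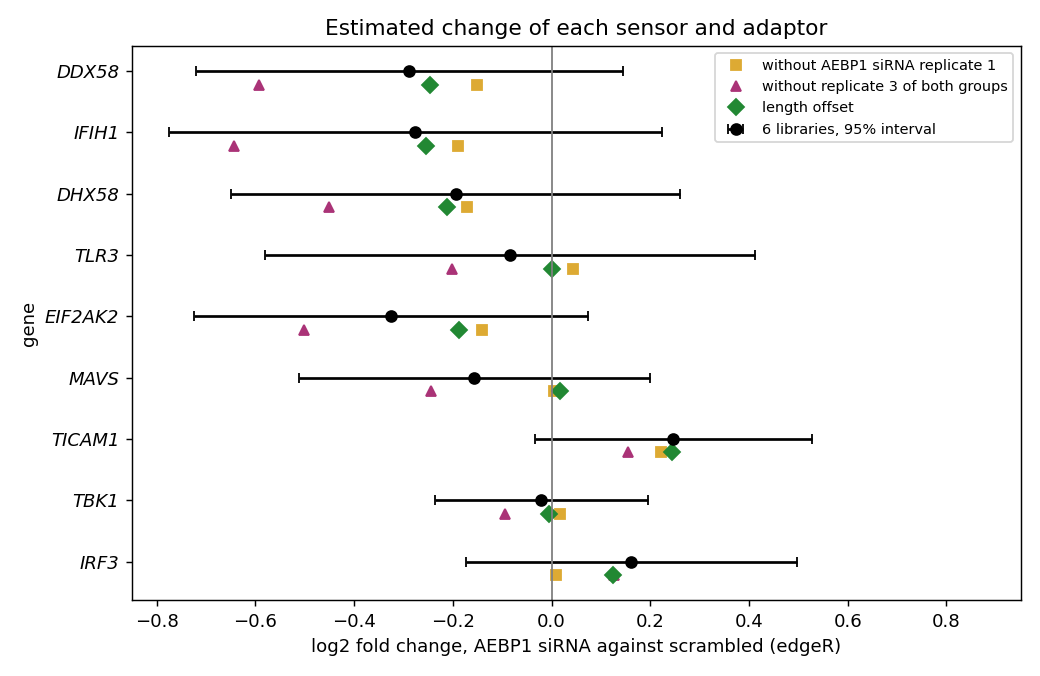
Log2 fold change of each gene, AEBP1 siRNA against scrambled (x axis), with its 95% interval from all 6 libraries in black and the estimates without AEBP1 siRNA 1, without replicate 3 of both groups, and with a length offset in colour. Every interval from 6 libraries includes 0. Without replicate 3 of both groups IFIH1 is at -0.64, DDX58 at -0.59, EIF2AK2 at -0.50 and DHX58 at -0.45. For the helicases a lower estimate was fixed by leaving out those libraries.

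AEBP1 siRNA 1 differed from the other libraries by transcript length, and the longest and the shortest members deviated in it. Length was taken as the ratio of deposited counts to FPKM. The genes tested were put in 4 length classes of equal size. Genes in the shortest class, up to 1.94 kb, had a median log2 deviation of 0.25 from the 6-library mean in AEBP1 siRNA 1, and those in the longest class, above 5.04 kb, had -0.28. In the other 5 libraries the medians of these classes lay between -0.093 and 0.10. For the 663 genes of at least 10 kb the median was -0.56 in AEBP1 siRNA 1. MAVS at 13.1 kb and EIF2AK2 at 11.1 kb are among them, with deviations of -0.46 and -0.61. IRF3, the shortest member at 1.8 kb, was at 0.36. DDX58 and IFIH1, at 4.88 and 3.92 kb, deviated by -0.44 and -0.30 where their length class had a median of -0.033, and DHX58, at 2.44 kb, by -0.13 where its class had 0.13.

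**Figure D4:**
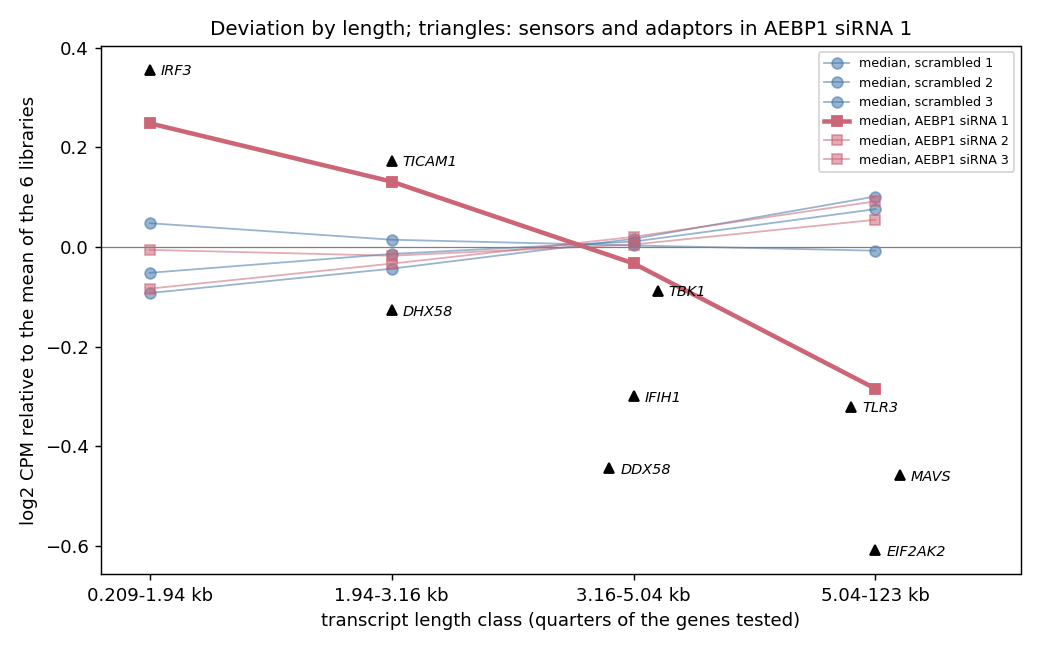
Median log2 CPM of all tested genes relative to the mean of the 6 libraries (y axis), by class of transcript length (x axis), with a line per library and triangles for the 9 genes in AEBP1 siRNA 1. The line of AEBP1 siRNA 1 falls from 0.25 to -0.28. Every gene except DHX58 lies on the same side of 0 as that line does for its length class. Every gene except IRF3 and TICAM1 lies below the line.

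An offset for length in each library was added as a setting once the length pattern had been seen. With it, the estimate for EIF2AK2 was -0.19 and that of MAVS 0.018, against -0.33 and -0.16 without it. TLR3 went from -0.084 to -9.2e-05. Those of the helicases were close to their first values, at -0.25 for DDX58, -0.25 for IFIH1 and -0.21 for DHX58, and those of TICAM1 and IRF3 were 0.24 and 0.13. With the offset 0 of 9 were called by edgeR. After the offset, the 6 libraries spanned 0.18 on the log2 scale for MAVS, against 0.60 before, and 0.84 for IFIH1, against 0.82 before.

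Reads of some members could not be assigned with certainty. In the GENCODE 29 annotation (GRCh38), 19.3% of the exon bases of IRF3 overlap BCL2L12 on the opposite strand, and 14.7% of those of TBK1 overlap the antisense gene AC135279.3. For EIF2AK2, 3.73% overlap a processed pseudogene on the opposite strand and 0.325% overlap GPATCH11. Whether counting used strand is not stated in these sources, and without it reads from such partners cannot be told apart. The remaining 6 members had no exonic overlap with another gene.

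EIF2AK2, IFIH1 and DDX58 had the widest range from the highest to the lowest library, although by the biological coefficient of variation TLR3, IFIH1 and DHX58 ranked first, at 0.211, 0.199 and 0.198. The genes with profiles nearest to the 3 of widest range were found by root mean square difference of centred log2 CPM over the 6 libraries among 11059 annotated genes whose mean reached 5 CPM. Nearest to EIF2AK2 were PARD3B, PARP14 and HELB, at differences of 0.034, 0.039 and 0.059. PARD3B, the nearest, was at 36.9, 35.1 and 33.7 CPM in scrambled 1, 2 and 3. In AEBP1 siRNA 1, 2 and 3 it was at 19.2, 30.6 and 33.4 CPM. PARP14, an interferon-induced ADP-ribosyltransferase, was at 117, 114 and 107 CPM in scrambled 1, 2 and 3. In AEBP1 siRNA 1, 2 and 3 it was at 67.5, 103 and 112 CPM. PARD3B, PARP14 and HELB were lowest in AEBP1 siRNA 1, as EIF2AK2 was. A part of transcript length in this likeness was not tested. Nearest to DDX58 were the Wnt receptor FZD5, the adaptor-complex subunit AP3M1 and the transcription factor MXD1, at 0.029, 0.033 and 0.043. Nearest to IFIH1 were ZCCHC9, ARL14EP and MYCBP, at 0.081, 0.083 and 0.084, so no gene followed IFIH1 as closely as FZD5 followed DDX58.

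The wider pathway was followed through 6 lists with 103 genes, all in the table and 95 of them tested. Of these 95, 63 had lower and 32 higher estimates in AEBP1 siRNA. With the length offset 52 were lower and 43 higher. Over all genes, without that offset, 50.6% had lower estimates and the median log2 fold change was -0.0023. Paired CPM values below are the means of the scrambled and the AEBP1 siRNA libraries, in that order. By edgeR 0 of 95 were called, where 0.00615% of all genes were, and 2 of 95 had an unadjusted p under 0.05, where 1.33% did. Regulators and partners of RIG-I and MDA5 had lower estimates for 14 of 20, with a median log2 fold change of -0.065. It was -0.032 without AEBP1 siRNA 1, -0.041 without scrambled 2, -0.13 without scrambled 3, -0.11 without AEBP1 siRNA 3 and -0.019 with the length offset. The ubiquitin ligase RNF125, which limits RIG-I signalling, was at 1.31 and 0.946 CPM, the regulator NLRC5 at 20.3 and 17.6 CPM, and the ligase TRIM65 of MDA5 at 21.3 and 24.8 CPM. Signalling genes between the adaptors and the IRF factors had lower estimates for 8 of 20 and a median of 0.029, from 0.013 without scrambled 2 and 0.014 without AEBP1 siRNA 1 to 0.046 without scrambled 3 and 0.053 without AEBP1 siRNA 3. TBKBP1, an adaptor of TBK1, was at 13.8, 11.3 and 11 CPM in scrambled 1, 2 and 3. In AEBP1 siRNA 1, 2 and 3 it was at 15, 15.3 and 16.1 CPM. Its groups did not overlap (log2 fold change 0.36, edgeR adjusted p = 0.991). Groups did not overlap for 2 of the 20 signalling genes, against 5.93% of all genes. TRAF2 was at 102 and 117 CPM and the TBK1 adaptor AZI2 at 49.1 and 43.9 CPM.

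Among the other endosomal receptors, no counts came from the RNA receptors. TLR7 and TLR8, which detect single-stranded RNA and also respond to some siRNAs, had 0 counts in all 6 libraries, and a floor of 3 counts allows up to 0.061 to 0.0863 CPM (counting error only). TLR9, a receptor for DNA, was at 2.17 CPM ± 0.726 (SD, n = 3) and 1.63 CPM ± 0.565 (SD, n = 3). Over the 13 genes tested of this list, 6 had lower estimates and the median was 0.0033, with either sign when single libraries were left out (-0.043 without scrambled 3, 0.039 without AEBP1 siRNA 2). The chaperone CNPY3 was at 81.8 and 95.2 CPM and TICAM2, the bridging adaptor of TLR4, at 12.5 and 9.96 CPM.

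The list of other double-stranded RNA effectors and PKR partners had lower estimates for 16 of 19, where 50.6% of all genes did. Its median was -0.062. Without AEBP1 siRNA 1 the median was -0.0093, with 13 of 19 lower, and with the length offset -0.0022, with 10 of 19 lower. Without AEBP1 siRNA 2 it was -0.12. OAS2, which makes the activator of RNase L, was at 32.4, 24.3 and 21.1 CPM in scrambled 1, 2 and 3. In AEBP1 siRNA 1, 2 and 3 it was at 20.9, 16.7 and 20.5 CPM. Its groups narrowly did not overlap (log2 fold change -0.42, edgeR adjusted p = 0.991). Groups did not overlap for 1 of the 19 genes of this list, against 5.93% of all genes. OAS1 was at 12.5 and 8.39 CPM, and OASL at 3.04 and 1.94 CPM, with overlapping groups.

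The interferon genes themselves, except IFNE, were at or near 0 counts. IFNE had 6, 33 and 18 counts in scrambled 1, 2 and 3. In AEBP1 siRNA 1, 2 and 3 it had 19, 18 and 25 counts. IFNB1, the interferon that IRF3 induces, had 2 counts in scrambled 2, 2 in AEBP1 siRNA 3 and 0 in the other libraries, all under the floor of 3 counts. IFNL1, IFNL2 and IFNL3 had 0 counts in every library. Interferon receptors and signalling genes were expressed. Of the 12 genes tested of this list, IFNE among them, 10 had lower estimates, where 50.6% of all genes did. The median of the list was -0.084. It was -0.039 without AEBP1 siRNA 1, -0.050 without scrambled 1 and -0.15 without scrambled 3. The receptor chain IFNAR1 was at 167 and 150 CPM and STAT2, a transcription factor of interferon signalling, at 72.2 and 66.1 CPM, as means of the scrambled and the AEBP1 siRNA libraries. Early targets of IRF3 had lower estimates for 9 of 11, where 50.6% of all genes did, and a median of -0.21. Single libraries moved it, to -0.062 without AEBP1 siRNA 2, -0.090 without scrambled 1, -0.32 without scrambled 3 and -0.35 without AEBP1 siRNA 3. The median was -0.16 without AEBP1 siRNA 1 and -0.19 with the length offset. IFIT1, which binds foreign RNA ends, was at 7.5, 6.28 and 4.56 CPM in scrambled 1, 2 and 3 and at 5.35, 3.88 and 5.45 CPM in AEBP1 siRNA 1, 2 and 3. CXCL11, a T cell chemokine, was at 1.38 and 0.827 CPM and TNFAIP3, an inhibitor of NF-kB signalling, at 125 and 108 CPM.

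**Figure D5:**
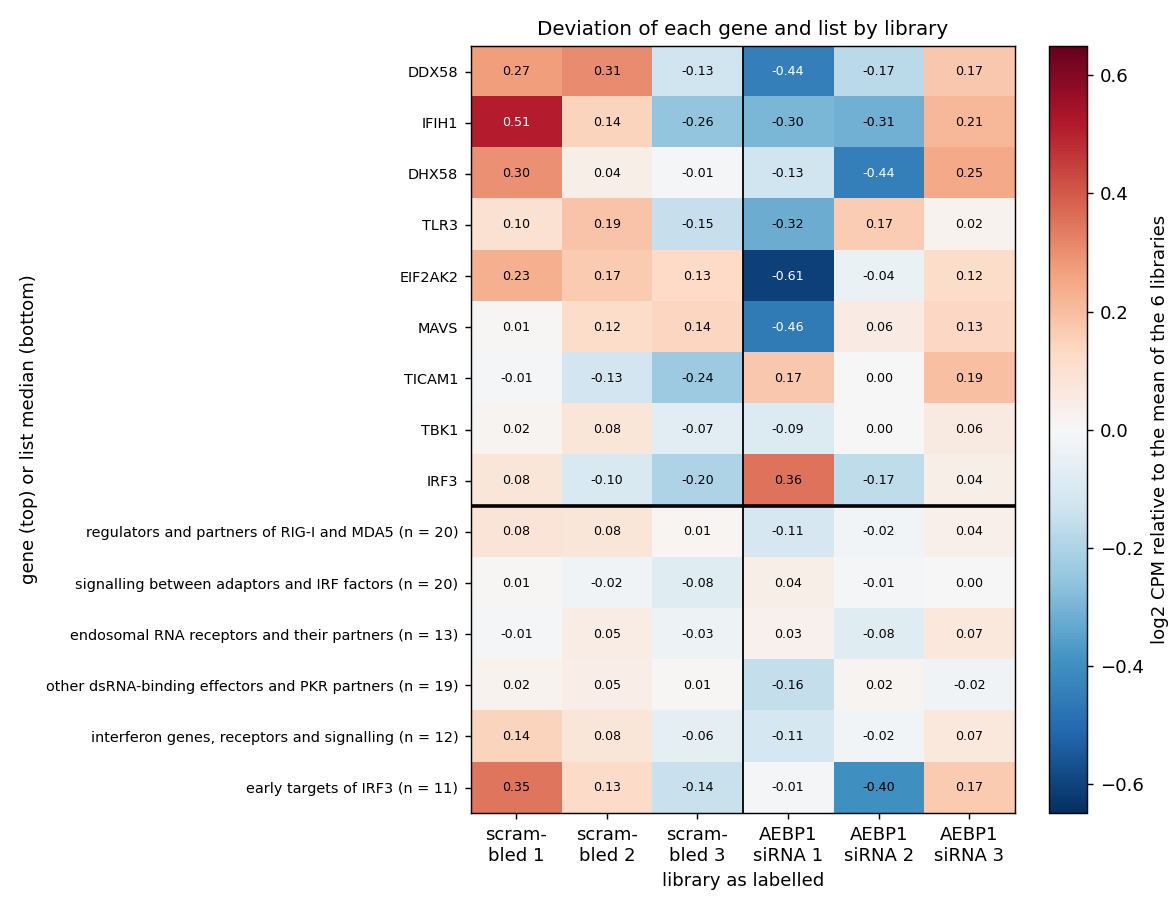
Log2 CPM relative to the mean of the 6 libraries for the 9 genes (top) and median over each pathway list (bottom), with a column per library and the value in each cell. IFIH1 runs from 0.51 in scrambled 1 to -0.31 in AEBP1 siRNA 2, and the early IRF3 targets from 0.35 to -0.40 in the same libraries.

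The helicases and the IRF3 targets shared their highest and lowest libraries in part. The median of the early IRF3 targets was 0.35, 0.13 and -0.14 in scrambled 1, 2 and 3 and -0.0088, -0.40 and 0.17 in AEBP1 siRNA 1, 2 and 3. IFIH1 and DHX58 were likewise highest in scrambled 1 and lowest in AEBP1 siRNA 2. Scrambled 1 and AEBP1 siRNA 2 were also the extremes of the second principal component of all genes tested, at 30.0 and -34.1. Sharing them is therefore not particular to these genes. DDX58 was highest in scrambled 2 and lowest in AEBP1 siRNA 1, where the targets were near their mean.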

How the data were processed

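RNA sequencing of 3 libraries labelled scrambled and 3 labelled AEBP1 siRNA was used. The authors deposited raw counts and FPKM for each gene, per the file headers. The submitters' processing notes name hg19 as the build. Not given in the sources used here are the aligner, counter, annotation, strandedness and filters. A further 17 lines without values were left out, and 27 symbols turned into dates were restored by gene ID. Counts were filtered with filterByExpr, scaled by trimmed mean of M values and tested by quasi-likelihood in edgeR 4.0.16 (R 4.3.3), with a single term for group. Benjamini-Hochberg adjustment ran over 16250 genes, and an adjusted p under 0.05 made a call. CPM uses scaled library sizes. Deviations use log2 CPM with a prior count of 2. Alternatives used DESeq2 1.42.0 and limma 3.58.1, the latter also on log2(FPKM + 1). The test was also run on simulated counts, with the outcome not reported here. These had no exchanged labels and no length effect, so that run says nothing about either in these libraries.

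The members and lists were chosen with earlier results of these data known. Named were the 9 members, AEBP1, the 3 genes nearest in profile to each of the 3 members of widest range, IFNB1, IFNL1 and the endosomal TLR genes, and up to 3 genes per list with the smallest p, of which some are not reported here. No set test was run, and lists are described by counts and medians.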

Additional observations from a re-analysis of the deposited data

How the results depend on the processing

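Over all alternatives run, 0 of 9 members and 0 of the pathway list genes were called, and the estimates of DDX58, IFIH1, DHX58, EIF2AK2 and TICAM1 kept their direction. Their log2 fold changes ran from -0.59 to -0.15, -0.65 to -0.068, -0.62 to -0.041, -0.50 to -0.14 and 0.068 to 0.31. Leaving out single libraries moved TLR3 between -0.19 and 0.043, MAVS between -0.27 and 0.0049, TBK1 between -0.059 and 0.017, IRF3 between 0.0093 and 0.28 and AEBP1 between -0.57 and -0.066. Without AEBP1 siRNA 1 and replicate 3 of both groups, TLR3 was at 0.024, IRF3 at -0.16 and AEBP1 at -0.88 (edgeR adjusted p = 0.00536). Replicate 3 was left out for its AEBP1 level, so a lower AEBP1 in the rest was fixed by that choice and is no check of the knockdown, and the AEBP1 siRNA group was then 1 library. With replicate 3 of both groups left out alone, AEBP1 was at -0.83 (adjusted p = 0.378). The length offset, added after the data were seen, put MAVS at 0.018. Of each change of sign the cause was not tested.

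Against 1 gene called in all, no filter gave 3, DESeq2 6, limma-voom 2, the replicate block 2 and the length offset 2. Leaving out single libraries gave 0 to 2, and leaving out AEBP1 siRNA 1 and replicate 3 of both groups gave 249. Deviations of same-numbered libraries correlated at 0.096, -0.0078 and -0.10, so the numbers gave no sign of pairing. The replicate block put EIF2AK2 at -0.36 and DDX58 at -0.30. TLR3 fell below a mean of 5 CPM and has no value under that filter. At 80 to 162 counts, TLR3 is the member whose precision depth limits most.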

Other observations

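IRF9, the DNA-binding partner of STAT2, was picked after its values were seen. It was at 22.1, 6.46 and 10.7 CPM in scrambled 1, 2 and 3 and at 18.6, 17.3 and 6.37 CPM in AEBP1 siRNA 1, 2 and 3. The cytosolic DNA sensor CGAS was at 112 and 113 CPM and its adaptor STING1, which also signals through TBK1, at 27 and 26.1 CPM as means of the scrambled and the AEBP1 siRNA libraries.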
